A study of Mus musculus with 8 samples.

Results

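The 9 genes followed here are known from tissue-resident macrophages: Cd5l, Folr2, Stab1, Vsig4, Timd4, Gata6, Lyve1, Cd163 and Adgre1. They make up 9 of 19938 genes measured. Each was found by its symbol in the array annotation, each had 1 probe set, and each of those probe sets carried that symbol alone. The genes were picked with the acLDL comparison already known, so their differences between the groups are described here without a test.

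Resident macrophages of the peritoneum, liver, spleen and connective tissue live for long periods in their organ and carry receptors that clear dying cells, complement-coated particles and modified lipoproteins. Their markers are lost or low in macrophages newly recruited by an irritant, which descend from blood monocytes. In mice the transcription factor gene Gata6 sets the program of the large resident peritoneal macrophage, and Timd4, Vsig4, Lyve1, Folr2 and Cd163 mark resident cells in various organs.

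The cells were macrophages of C57BL/6J mice, harvested from the peritoneum 5 days after injection of thioglycollate, a broth that draws monocytes into the cavity. All arrays therefore come from elicited and cultured cells, and resident cells from an untouched peritoneum were not analysed here. There were 4 arrays of cells without loading (unloaded) and 4 of cells given acetylated low-density lipoprotein (acLDL), a modified lipoprotein that enters macrophages through scavenger receptors and fills them with cholesterol. For the acLDL exposure, 20 µg/mL over 3 days is stated in the sample protocols but 50 µg/mL over 2 days in the description of the series, so neither dose nor time is settled. The 4 samples of a condition are described as independent biological replicates, and the sources used here do not say which mice went into which culture, so the spread between arrays may be partly technical.

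Values are log2 expression from Affymetrix arrays, and a difference is always acLDL minus unloaded on that scale. Probe sets differ in sensitivity, so levels are compared between groups for 1 gene and not between genes. As a gauge of background, the 95th percentile of the mean levels of 1027 olfactory receptor genes was 6.12. Across genes, 2 arrays of one group correlated at 0.994 to 0.997, and arrays of different groups at 0.989 to 0.991. The median level of the olfactory receptor genes was 4.46 ± 0.04 in unloaded and 4.38 ± 0.02 in acLDL arrays (SD, n = 4; two-sided exact permutation p = 0.0286, the smallest that 4 against 4 arrays can give), and its part in the results below was not tested. A lower level of an RNA in such bulk samples can mean fewer cells of a type or less RNA per cell, and these cannot be told apart.

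The cultures had high levels of macrophage genes, 11 of 12 markers having means above the gauge. Cd68, a lysosomal glycoprotein gene of macrophages, stood at 12.93 ± 0.03 in unloaded and 12.85 ± 0.04 in acLDL arrays, and Csf1r, the receptor for macrophage colony-stimulating factor, at 11.12 ± 0.07 and 11.12 ± 0.06 (log2, SD, n = 4). Neither passed the test (limma adjusted p = 0.324 and 0.988), though Cd68 passed as lower with a trended robust prior (limma adjusted p = 0.0275). Of the 12 macrophage markers, 6 rose, 3 fell and 3 did not pass, where 12.9% of all genes rose, 10.5% fell and 23.3% changed in either direction in limma. Markers of resident macrophages were detected in part. Timd4, Lyve1 and Cd163 lay below the background gauge in both groups, while the other 6 genes had means over the 8 arrays above it.

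For the 4 genes with the largest differences, the bases upstream of the annotated start are shown because these genes differed in one direction and share macrophage expression. Each line gives the 250 bases before a start site, 5′ to 3′, from RefSeq on GRCm38.p6, and the capitals mark the MAF half-site TGCTGA on either strand, the element of the transcription factor MAF. Folr2 has 2 annotated starts.
Cd5l, chr3:87357631-87357880, plus strand: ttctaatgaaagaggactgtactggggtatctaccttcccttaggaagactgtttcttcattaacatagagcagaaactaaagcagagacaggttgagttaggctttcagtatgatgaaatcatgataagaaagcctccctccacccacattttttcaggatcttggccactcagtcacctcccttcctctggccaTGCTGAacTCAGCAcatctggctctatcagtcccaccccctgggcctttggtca
Folr2, chr7:101845332-101845581, minus strand: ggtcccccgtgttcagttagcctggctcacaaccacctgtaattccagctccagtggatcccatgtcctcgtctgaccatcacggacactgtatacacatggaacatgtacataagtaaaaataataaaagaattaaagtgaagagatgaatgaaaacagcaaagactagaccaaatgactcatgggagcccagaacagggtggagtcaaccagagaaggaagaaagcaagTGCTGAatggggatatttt
Folr2, chr7:101857191-101857440, minus strand: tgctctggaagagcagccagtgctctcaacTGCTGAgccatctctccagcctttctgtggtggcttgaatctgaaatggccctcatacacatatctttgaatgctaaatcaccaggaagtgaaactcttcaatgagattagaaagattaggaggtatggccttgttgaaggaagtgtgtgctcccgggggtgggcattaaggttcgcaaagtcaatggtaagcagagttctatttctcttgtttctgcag
Stab1, chr14:31168642-31168891, minus strand: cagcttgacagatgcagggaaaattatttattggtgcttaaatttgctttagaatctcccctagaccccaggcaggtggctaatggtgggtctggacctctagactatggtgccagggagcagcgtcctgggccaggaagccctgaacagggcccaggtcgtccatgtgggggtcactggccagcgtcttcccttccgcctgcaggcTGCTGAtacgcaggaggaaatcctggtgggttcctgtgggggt
Vsig4, chrX:96293439-96293688, minus strand: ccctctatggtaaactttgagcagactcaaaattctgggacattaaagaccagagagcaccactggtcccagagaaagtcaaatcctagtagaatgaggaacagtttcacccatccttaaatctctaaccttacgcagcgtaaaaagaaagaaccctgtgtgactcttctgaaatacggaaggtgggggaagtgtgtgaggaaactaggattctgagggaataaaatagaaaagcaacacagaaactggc

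The Cd5l window held TGCTGA on both strands, at bases 54 to 49 and 46 to 41 before the start, as an inverted pair. Both Folr2 windows held it once, at bases 19 to 14 before the start on chr7:101845332-101845581 and at bases 220 to 215 on the other. In Stab1 it lay at bases 43 to 38, and the Vsig4 window did not hold these letters. Of 32851 windows of 250 bases in the RefSeq table, 16.1% held TGCTGA on either strand. The table had 6 of the 9 genes, and of the remaining ones, Gata6, Lyve1 and Adgre1, no window was searched. Timd4, which was not higher with acLDL, held TGCTGA at 2 places, and Cd163 held none.

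The other motifs were searched on both strands in the same windows, and none of their matches overlapped TGCTGA. The direct repeat bound by liver X receptors (LXR), AGGTCA repeated after a gap of 4 bases, was in 0.0152% of all windows and in none of these genes. Its half-site AGGTCA, which the repeat contains, was in 14.0% of windows and among these genes in Timd4. GAGGAA, the core bound by the myeloid factor PU.1, was in 23.3% of windows and in Cd5l, Stab1 and Vsig4. TGATAA, an element of the GATA factors, was in 7.94% of windows and in Cd5l. Its variant AGATAA was in 9.99% of windows and in none of these genes. Matches of this kind describe letters in a window and no binding was measured.

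Of the 9 genes, 5 had every acLDL array above every unloaded array, which 14.0% of all 19938 genes also had. These 5, Cd5l, Folr2, Stab1, Vsig4 and Adgre1, were also the ones whose mean was at least 1.5-fold higher, against 1.33% of all genes. None of the 9 was at least 1.5-fold lower (0.697% of all genes), none lay wholly below (11.6% of all genes), and the groups overlapped in 4. The median difference was 0.59 over the 9 genes and 0.00 over all genes. Since these genes were chosen on this contrast, nothing is read from the shares.

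**Figure D1:**
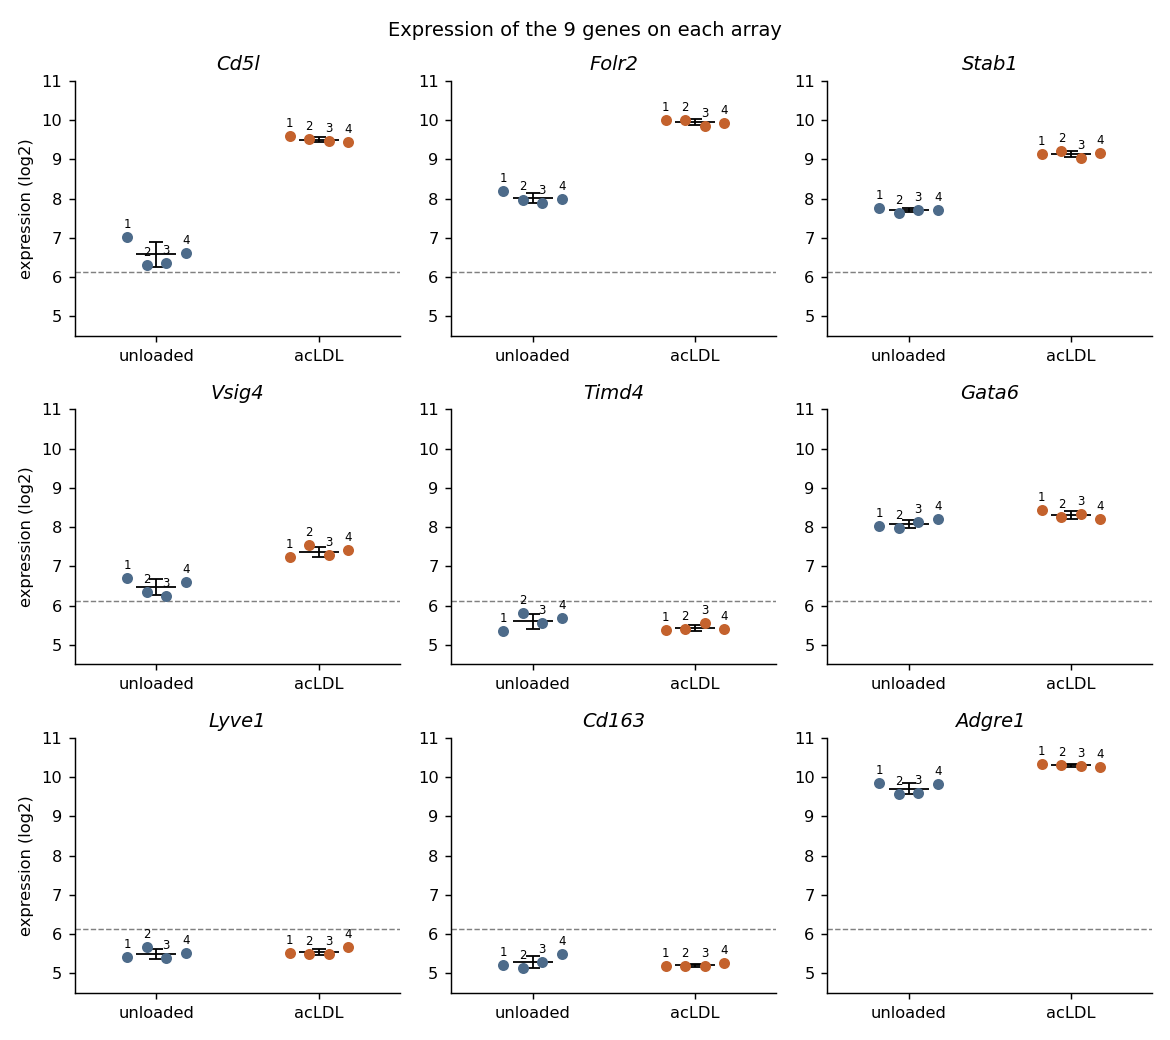
Expression (log2) of the 9 genes on each array, by group. Points are arrays numbered by replicate, bars are the mean and SD of 4 arrays, and the dashed line is the background gauge of 6.12. Cd5l, Folr2, Stab1, Vsig4 and Adgre1 do not overlap between groups, and Timd4, Lyve1 and Cd163 stay below the line.

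Cd5l encodes a secreted scavenger receptor cysteine-rich (SRCR) protein, also called apoptosis inhibitor of macrophage, which in mice is known as an LXR target and a marker of resident macrophages of liver and spleen. Its unloaded arrays 1 to 4 read 7.01, 6.31, 6.37 and 6.62, and its acLDL arrays read 9.60, 9.51, 9.46 and 9.45. The unloaded arrays were low and scattered, with arrays 1 and 4 above 2 and 3, and the acLDL arrays were high and close together. The means were 6.58 ± 0.32 and 9.51 ± 0.07 (log2, SD, n = 4). The difference of 2.93 was 7.61-fold and ranked 1st among the differences of the 19938 genes. Unloaded arrays 2 and 3 were close to the background gauge, so the fold may be understated.

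The scatter of Cd5l among unloaded arrays was itself unusual. Its unloaded SD ranked 104th from the top of 19938 genes and was 4.63 times its SD among acLDL arrays. Adgre1 had a higher ratio of these SDs, 5.22, and Cd163 one of 4.15, so such a ratio was not particular to Cd5l. The median SD over all genes was 0.11 in unloaded and 0.09 in acLDL arrays. The gap between the highest unloaded and the lowest acLDL array of Cd5l was 2.44, against a range of 0.70 within the unloaded arrays. Without unloaded arrays 1 and 4 the difference was 3.16, and without arrays 2 and 3 it was 2.69.

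Nr1h3, the gene of LXR alpha, rose from 8.28 ± 0.14 to 8.95 ± 0.06 (log2, SD, n = 4; difference 0.66 ± 0.07 SE, limma adjusted p = 3.01e-05). Maf differed by 0.18 ± 0.07 SE and did not pass (limma adjusted p = 0.0587), though it passed without unloaded array 2 (limma adjusted p = 0.0247), without unloaded arrays 2 and 3, with the filter on dim genes and with a trended robust prior.

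Cd5l and Cd163 belong to the SRCR family. Of 15 measured family members other than these, limma called 3 higher, 0 lower and 12 neither, a count near the 23.3% of all genes that changed. The median difference was 0.02. Msr1, the class A scavenger receptor through which macrophages take up acLDL, rose by 0.56 ± 0.07 (log2, SE; limma adjusted p = 4.84e-05) from 9.62 ± 0.09 (SD, n = 4). Loxl1 and Loxl3, lysyl oxidase genes, rose by 0.23 and 0.20, with limma adjusted p of 0.0450 and 0.0438, Loxl3 being named after its value was seen. The Loxl1 call was lost without unloaded array 2, 3 or 4, acLDL array 1 or 4 or unloaded arrays 2 and 3 together, and with quantile normalisation, median centring and cyclic loess. Without unloaded array 4, acLDL array 1 or acLDL array 4, and after centring arrays on their medians, 1 member passed.

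Folr2 encodes folate receptor beta, a membrane-anchored receptor of macrophages that binds folate. Its unloaded arrays read 8.19, 7.98, 7.90 and 8.003 and its acLDL arrays 10.01, 10.01, 9.85 and 9.92. The groups lay far apart, with unloaded array 1 the highest of its group. The means were 8.02 ± 0.12 and 9.95 ± 0.08 (log2, SD, n = 4), and the difference of 1.93, or 3.81-fold, ranked next after Cd5l among all genes. The related receptor gene Folr1 stood below the background gauge, at 6.01 ± 0.14 and 5.92 ± 0.12 (SD, n = 4), and did not pass (limma adjusted p = 0.484).

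Among 16 measured genes that move or use folate, limma called 5 higher and 5 lower and left 6 uncalled (all genes: 12.9% higher, 10.5% lower), and the median difference was 0.07. Mthfd2, the mitochondrial methylenetetrahydrofolate dehydrogenase, was 2.00-fold higher, from 7.95 ± 0.21 to 8.96 ± 0.06 (log2, SD, n = 4; limma adjusted p = 6.37e-06). Shmt2, the mitochondrial serine hydroxymethyltransferase, was 1.58-fold higher (limma adjusted p = 9.54e-05). The transporter genes Slc19a1, for reduced folate at the plasma membrane, and Slc25a32, for folate into mitochondria, fell by 0.40 and 0.38 on the log2 scale (limma adjusted p = 0.0278 and 0.00868), and the Slc25a32 call was lost without unloaded arrays 1 and 4. The Slc19a1 call was lost without unloaded array 2 or 3 or acLDL array 1, 2 or 4, and with the mean of its probe sets the difference was -0.08 (limma adjusted p = 0.467).

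Stab1 encodes stabilin-1, a large scavenger receptor of resident macrophages and of some endothelium that internalises acLDL and extracellular matrix proteins. On the unloaded arrays it read 7.77, 7.64, 7.72 and 7.71, and its acLDL arrays 9.13, 9.22, 9.05 and 9.16. Each group was tight, and the groups were well separated. The means were 7.71 ± 0.05 and 9.14 ± 0.07 (log2, SD, n = 4), a difference of 1.43 or 2.69-fold, which ranked 8th among all genes. Stab2, which encodes the related stabilin-2 of sinusoidal endothelium, was at 6.19 ± 0.12 and 6.11 ± 0.05 (SD, n = 4) and did not pass (limma adjusted p = 0.427). Both Stab2 means were close to the background gauge.

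Among genes of stabilin-1 ligands and of proteins that sort it, limma called 5 of 10 measured as higher and 0 as lower (all genes: 12.9% and 10.5%), and the median difference was 0.15. Tgfbi, a matrix protein gene, rose by 0.52 ± 0.08 (log2, SE; limma adjusted p = 0.000417), and Postn, the periostin gene, by 0.32 ± 0.09 (limma adjusted p = 0.0164) from a level below the background gauge. The Postn call was lost and the count was 3 without unloaded array 2 or acLDL array 2, and 2 without unloaded arrays 2 and 3.

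Vsig4 encodes a complement receptor of the immunoglobulin family that binds fragments of C3 and marks resident macrophages of liver and peritoneum. Levels on unloaded arrays 1 to 4 were 6.70, 6.35, 6.24 and 6.61, and its acLDL arrays 7.25, 7.54, 7.30 and 7.41. As for Cd5l, unloaded arrays 1 and 4 were above 2 and 3, and no array of one group reached the other. The means were 6.47 ± 0.22 and 7.37 ± 0.13 (log2, SD, n = 4), a difference of 0.90 or 1.86-fold. The difference was 1.08 without unloaded arrays 1 and 4, and 0.72 without arrays 2 and 3. The unloaded level was close to the background gauge.

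The C3 list held other receptors and regulators of C3 fragments and related complement genes. In it limma called 3 of 11 measured as higher and 1 as lower (all genes: 12.9% and 10.5%), with a median difference of 0.01. C5ar1, the receptor for C5a, was 1.65-fold higher, from 9.26 ± 0.15 to 9.98 ± 0.03 (log2, SD, n = 4; limma adjusted p = 1.98e-05). Itgam, the alpha chain of complement receptor 3, was 1.55-fold higher (limma adjusted p = 2.23e-05). Cr1l, a complement regulator gene, fell by 0.28 (limma adjusted p = 0.0447). The count of changed members was 2, both rises, without unloaded array 1, 2 or 4 or acLDL array 1, 3 or 4.

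Adgre1 encodes an adhesion receptor of the EGF-TM7 family by which mouse macrophages are recognised. In the unloaded group it read 9.84, 9.56, 9.60 and 9.83, and its acLDL arrays 10.33, 10.31, 10.28 and 10.27. The pattern of unloaded arrays 1 and 4 above 2 and 3 recurred, and the acLDL arrays spanned 0.06. The means were 9.71 ± 0.15 and 10.30 ± 0.03 (log2, SD, n = 4), and the difference of 0.59 was 1.504-fold, just past the 1.5-fold mark. It fell short of that mark without unloaded array 2 or 3 or acLDL array 1 or 2, after quantile normalisation and after median centring. The difference was 0.72 without unloaded arrays 1 and 4, and 0.46 without arrays 2 and 3. These arrays also split in other genes. The median over all genes was 6.44 and 6.45 on unloaded arrays 1 and 4, and 6.52 and 6.54 on 2 and 3. Cd68 and Abca1 read higher on arrays 1 and 4, as Adgre1 did, so this order was not particular to Cd5l, Vsig4 and Adgre1. The part of array-wide shifts in it was not tested. Of 12 other adhesion receptor genes measured, limma called 2 higher and 0 lower (all genes: 12.9% and 10.5%). Both, Adgra2 (0.25) and Adgrg1 (0.24), were near the threshold (limma adjusted p = 0.0339 and 0.0337), and the count was 0 without acLDL array 1 or 3 and 1 without unloaded array 1, 2 or 4 or acLDL array 2 or 4. With a replicate block, median centring or cyclic loess it was 1.

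Gata6 differed little. On unloaded arrays 1 to 4 it read 8.03, 7.98, 8.14 and 8.21, and its acLDL arrays 8.44, 8.26, 8.34 and 8.21. The groups touched, since the lowest acLDL array lay 0.0003 below the highest unloaded array. The means were 8.09 ± 0.10 and 8.31 ± 0.10 (log2, SD, n = 4), a difference of 0.22. It ranked 2451st from the highest among the 19938 genes, whose median absolute difference was 0.11. Gata6 is also known from mesothelial and stromal cells. Of 10 mesothelial and fibroblast markers, 7 had means above the background gauge. Among these, Dcn was at 10.74 ± 0.13 and 10.48 ± 0.09 and Wt1 at 7.44 ± 0.06 and 7.58 ± 0.11 (SD, n = 4). Among mesothelial markers, Msln, Krt18 and Krt19 had means over the 8 arrays below the gauge. Upk3b, at 6.65 ± 0.09 and 6.65 ± 0.10, and Lrrn4, at 6.98 ± 0.11 and 7.06 ± 0.10, lay above it (SD, n = 4). The part of such cells in the Gata6 level was not tested.

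Timd4 encodes a receptor for phosphatidylserine on dying cells and marks long-lived resident macrophages. Without acLDL it read 5.36, 5.80, 5.56 and 5.69, and its acLDL arrays 5.37, 5.39, 5.55 and 5.40. All lay below the background gauge and the groups overlapped, with means of 5.60 ± 0.19 and 5.43 ± 0.08 (log2, SD, n = 4). Among 12 measured genes of the TIM family and other phosphatidylserine receptors or bridging proteins, limma called 3 higher and 4 lower (all genes: 12.9% and 10.5%), with a median of -0.12. Axl, a receptor kinase for the bridging protein Gas6, was 1.51-fold higher (limma adjusted p = 0.000476), and Itgav, an integrin alpha chain, rose by 0.36 (limma adjusted p = 0.00198). Cd300lf and Cd300lb, receptors of the CD300 family, fell by 0.55 and 0.30 (limma adjusted p = 0.000246 and 0.00327).

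Lyve1 encodes a hyaluronan receptor of lymphatic endothelium and of a subset of resident macrophages. Its unloaded arrays read 5.41, 5.68, 5.38 and 5.51, and its acLDL arrays 5.53, 5.50, 5.50 and 5.67, which overlapped below the background gauge. The lymphatic transcription factor gene Prox1 was at 4.60 ± 0.06 and 4.71 ± 0.04 (log2, SD, n = 4; limma adjusted p = 0.237). Of 13 measured genes of hyaluronan receptors and enzymes, limma called 2 higher and 0 lower (all genes: 12.9% and 10.5%), with a median of -0.03. Layn, the layilin gene, rose by 0.34 ± 0.08 (SE; limma adjusted p = 0.00593), and Hmmr, also known as a mitosis gene, by 0.23 ± 0.06 (SE; limma adjusted p = 0.0123) below the background gauge, so that 1 passed when dim genes were left out. Without acLDL array 3, 4 members rose.

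Cd163 encodes the scavenger receptor for haemoglobin bound to haptoglobin. Its unloaded arrays read 5.22, 5.12, 5.28 and 5.48, and its acLDL arrays 5.20, 5.19, 5.19 and 5.26, again overlapping and below the background gauge. Among genes that handle haemoglobin, haem and iron, limma called 9 of 15 measured as higher and 0 as lower (all genes: 12.9% and 10.5%), with a median difference of 0.28. Blvrb, a biliverdin reductase, was 2.02-fold higher, from 8.55 ± 0.08 to 9.56 ± 0.04 (log2, SD, n = 4; limma adjusted p = 1.66e-07). Hmox1, the inducible haem oxygenase, was 1.45-fold higher, from 10.53 ± 0.14 to 11.07 ± 0.08 (SD, n = 4; limma adjusted p = 0.000195). The iron exporter gene Slc40a1 stood at 6.17 ± 0.06 and 6.06 ± 0.11 (SD, n = 4) and did not pass (limma adjusted p = 0.271).

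**Figure D2:**
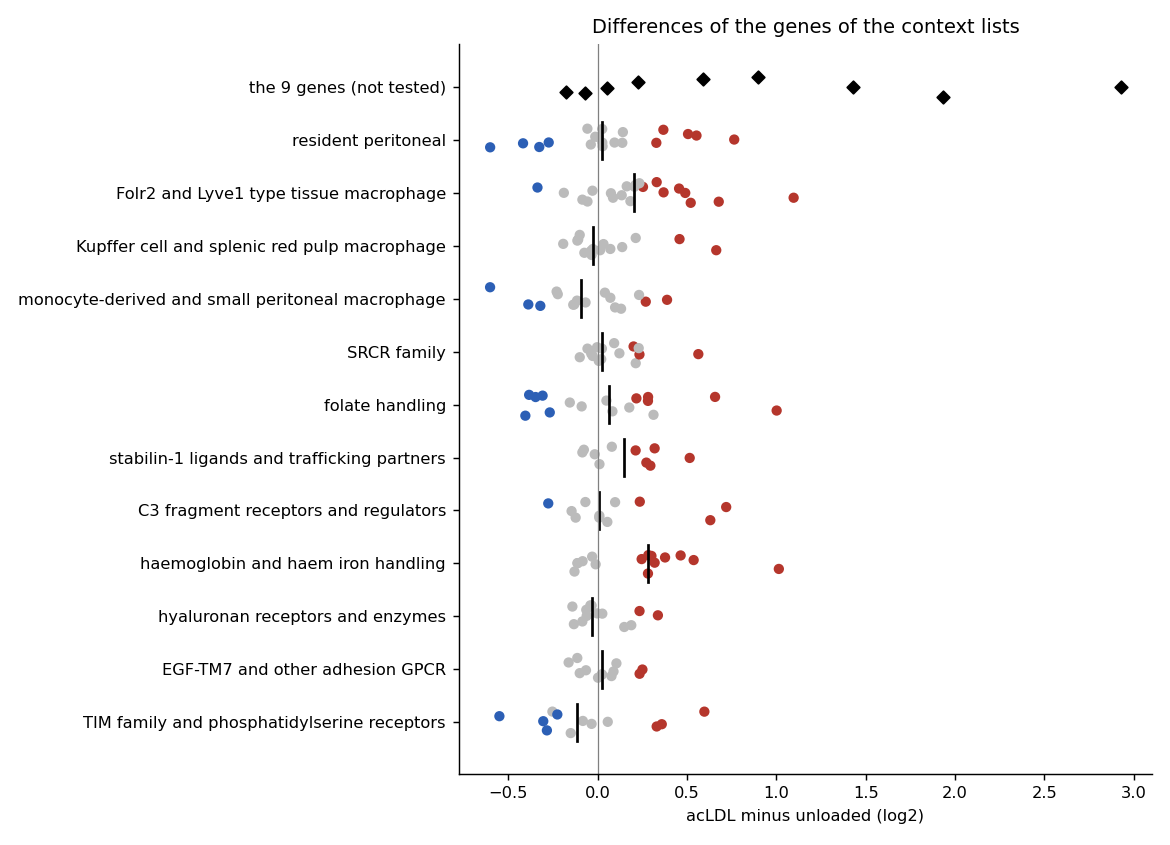
Differences between groups (acLDL minus unloaded, log2) of single genes in 12 lists, with the 9 genes as black diamonds at the top. Red and blue points passed limma's test as higher and lower with acLDL, grey points did not, and black bars are list medians; the haemoglobin and haem iron list has 9 red points and 0 blue ones.

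In the list of resident peritoneal macrophage genes limma called 5 of 19 measured as higher and 4 as lower (all genes: 12.9% and 10.5%), with a median difference of 0.03. Padi4, a peptidylarginine deiminase, was 1.70-fold higher from an unloaded level of 5.57 ± 0.13, and Serpinb2, a protease inhibitor, 1.47-fold higher from 5.98 ± 0.29 (SD, n = 4; limma adjusted p = 5.59e-05 and 0.00380). Both unloaded levels lay below the background gauge, so the folds may be understated. Cxcl13, the B cell chemokine gene, went from 10.49 ± 0.09 to 9.89 ± 0.09 (SD, n = 4; limma adjusted p = 4.60e-05). Bhlhe40, a transcription factor gene of resident peritoneal macrophages, fell by 0.42 (limma adjusted p = 0.000291).

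Among genes of the macrophages that carry Folr2 or Lyve1 in connective tissue, limma called 8 of 21 measured as higher and 1 as lower (all genes: 12.9% and 10.5%), with a median difference of 0.21. Clec10a, a galactose-type lectin, was 2.14-fold higher, from 5.07 ± 0.18 to 6.17 ± 0.19 (log2, SD, n = 4; limma adjusted p = 8.60e-06), and its unloaded level lay below the background gauge. Ninj1, a membrane adhesion gene, was 1.60-fold higher (limma adjusted p = 9.92e-06). Mrc1, the mannose receptor, rose by 0.25 (limma adjusted p = 0.0138), a call that was lost without acLDL array 4 (limma adjusted p = 0.0504) and without unloaded arrays 2 and 3. The member that fell was Txnip, a regulator of thioredoxin, by 0.34 (limma adjusted p = 0.00109).

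In the list of Kupffer cell and splenic red pulp macrophage genes, the resident cells of liver and spleen in which Cd5l is best known, limma called 2 of 15 measured as higher and 0 as lower (all genes: 12.9% and 10.5%), with a median of -0.03. Those that rose were Nr1h3 and Pltp, the phospholipid transfer protein, by 0.66 and 0.46 (limma adjusted p = 3.01e-05 and 7.20e-05). Clec4f, the lectin that defines Kupffer cells in mice, was at 6.19 ± 0.27 and 6.00 ± 0.10 (SD, n = 4; limma adjusted p = 0.234). Without unloaded arrays 1 and 4, 4 members passed, 3 higher and 1 lower.

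For genes of monocyte-derived and small peritoneal macrophages, limma called 2 of 16 measured as higher and 3 as lower, near the shares of all genes (12.9% and 10.5%), with a median difference of -0.09. With a replicate block the counts were 3 higher and 5 lower. H2-Aa and H2-Eb1, chains of MHC class II, fell by 0.60 and 0.39 (limma adjusted p = 5.08e-05 and 0.000598). Fcgr4, an Fc receptor gene, and Napsa, an aspartic protease gene, rose by 0.39 and 0.27 (limma adjusted p = 0.00158 and 0.0110), and the Napsa call was lost without unloaded arrays 2 and 3.

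The genes whose array profiles lay nearest to the members were found by the root mean square distance over the 8 arrays, each gene being taken relative to its own unloaded mean. They were chosen for their likeness and are described without a test. Abca1, the cholesterol exporter, was nearest to Folr2, at a distance of 0.11, followed by Gstp1 and C1qa at 0.16 each. Cfp, C1qc and C1qb, which are complement genes, were nearest to Stab1, at 0.09 each. For Vsig4 the nearest were Tlr1, Ly6e and Rbx1, also at 0.09 each. The difference of Rbx1 was 0.92 and ran from 0.59 to 1.01 across the settings run, so its likeness to Vsig4 depends on the processing. Cd5l had the largest difference of all genes, so its nearest, Gstp1, Abca1 and C1qa, lay farther away, at 0.72, 0.73 and 0.87. The Gstp1 value is uncertain, because Gstp2 is almost the same in sequence.

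**Figure D3:**
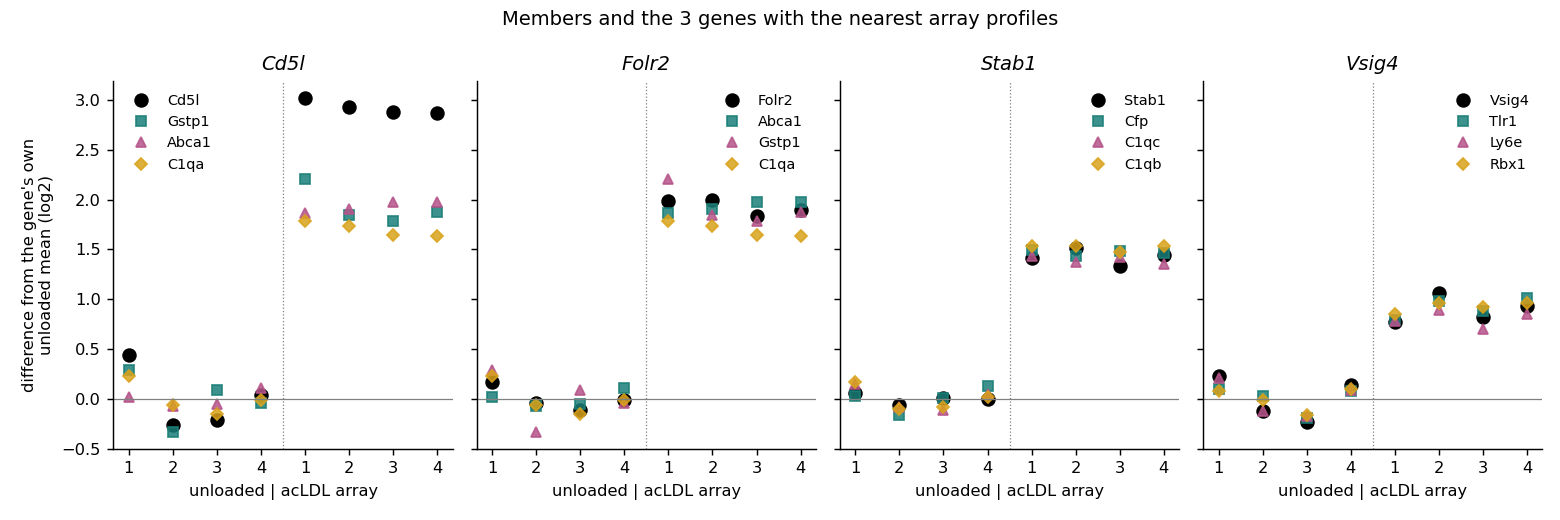
Array values of Cd5l, Folr2, Stab1 and Vsig4 (black) and of the 3 genes nearest to each (colours), as the difference from each gene's own unloaded mean (log2) on unloaded arrays 1 to 4 and acLDL arrays 1 to 4. The points nearly coincide for Stab1 and Vsig4, and Cd5l stands above its nearest genes on all acLDL arrays.

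Markers of other cells were set beside these results. Over 8 lists of other cells, with 6 to 11 measured markers each, 0 markers rose and between 0 and 3 markers a list fell in limma. Of all genes, 12.9% rose and 10.5% fell. The mean level of the B cell list ran from 5.75 to 5.89 in unloaded and from 5.74 to 5.88 in acLDL arrays, and that of the T cell list from 5.45 to 5.57 and from 5.41 to 5.53. Neutrophil markers ran from 5.28 to 5.36 and from 5.15 to 5.24, eosinophil markers from 5.63 to 5.74 and from 5.55 to 5.63, mast cell markers from 5.39 to 5.45 and from 5.34 to 5.44, and dendritic cell markers from 5.47 to 5.69 and from 5.49 to 5.58. At most 3 markers of any of these lists had a mean above the background gauge.

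The mesothelial and fibroblast list, with 7 of 10 markers above the gauge, ran from 7.80 to 7.90 in unloaded and from 7.76 to 7.89 in acLDL arrays. The endothelial list ran from 6.29 to 6.43 and from 6.21 to 6.30. The marker with the largest absolute difference in each list was, in order of size, Pdpn of the endothelial list, which is also known from macrophages (-0.81), Siglecf (-0.60), Mmp8 (-0.37), Blk (-0.30), Cma1 (-0.27), Dcn (-0.26), Siglech (-0.15) and Cd4 (-0.14). All but Siglech and Cd4 passed in limma. Mmp8, Blk and Cma1, like Siglech and Cd4, had means over the 8 arrays below the background gauge. Some calls rested on single arrays. That of Dcn was lost without unloaded array 4 or acLDL array 3 or 4, that of Blk without unloaded array 3 or 4 or acLDL array 2 or 4, and that of Mmp8 without unloaded array 1 or 4 or acLDL array 1, 3 or 4. The Mmp8 call was also lost with quantile normalisation (limma adjusted p = 0.0905) and cyclic loess (limma adjusted p = 0.0809), those of Mmp8 and Dcn without unloaded arrays 1 and 4 together, and that of Blk without arrays 2 and 3. Without unloaded arrays 1 and 4, Cd4 passed as lower (limma adjusted p = 0.0363).

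**Figure D4:**
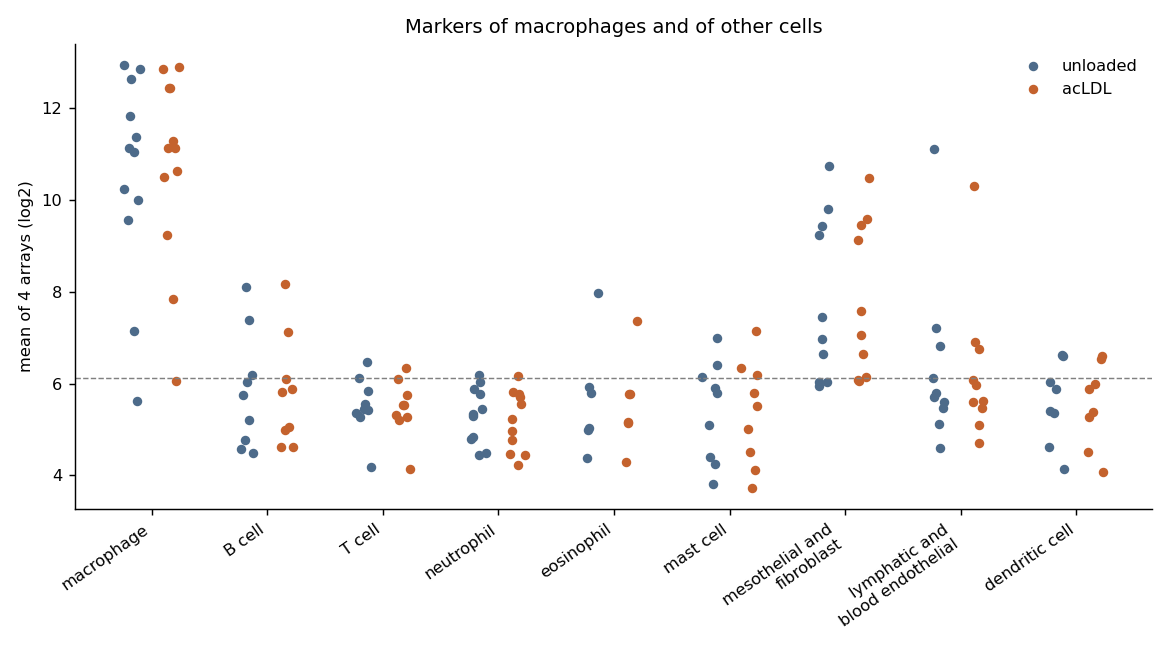
Mean expression of 4 arrays (log2) of marker genes of macrophages and of 8 kinds of other cells, unloaded and acLDL side by side. Each point is a gene and the dashed line is the background gauge of 6.12; mesothelial and fibroblast markers are the other list with most points above it, 7 of 10.

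The differences of the 9 genes were recomputed with other settings. Folr2 ran from 1.85 to 2.01, Stab1 from 1.39 to 1.46 and Cd5l from 2.69 to 3.16. Gata6 stayed between 0.18 and 0.26. Timd4 ran from -0.26 to -0.10, Lyve1 from 0.01 to 0.11 and Cd163 from -0.14 to 0.00.

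**Figure D5:**
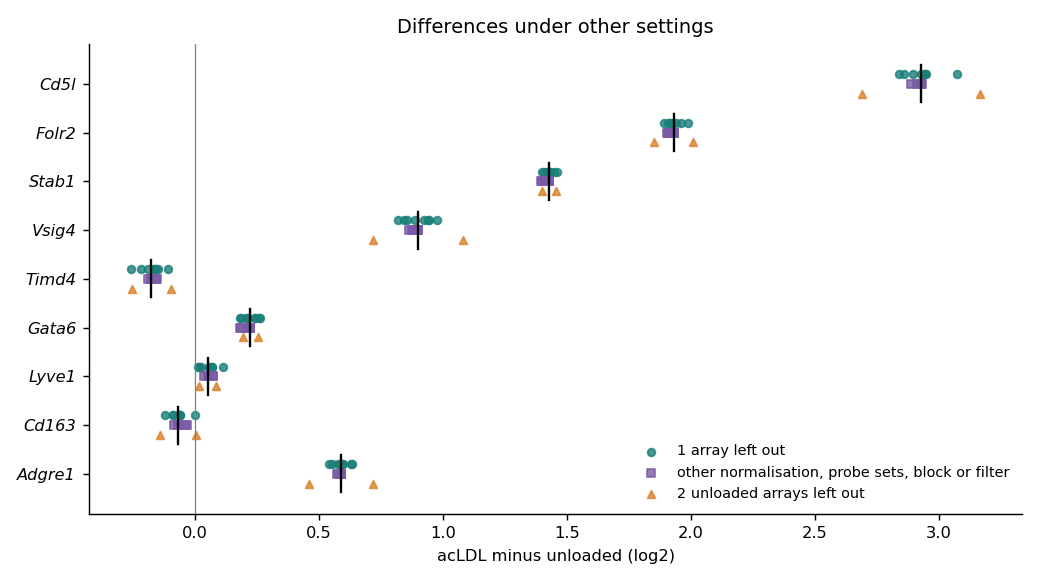
Difference between groups (acLDL minus unloaded, log2) of each of the 9 genes under other settings, with the main value as a black bar. For Cd5l, Folr2, Vsig4, Adgre1 and Cd163 the lowest and highest values come from leaving out 2 unloaded arrays (triangles), from 2.69 to 3.16 for Cd5l and from 0.46 to 0.72 for Adgre1. These 2 arrays were chosen after seeing the data, so the width partly follows from that choice.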

How the data were processed

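Total RNA of 8 cultures, 4 unloaded and 4 with acLDL, was measured on Affymetrix arrays after standard labelling, per the labels' protocols. The deposited values are log2 expression made by the authors with RMA (robust multi-array averaging, as the submitters' processing notes name it). The sources used here do not state its version or settings. Such values compress differences of dim genes and hide a change shared by all genes. Of 35557 probe sets, 21789 had 1 gene symbol, 1621 had several and 12147 were not annotated. The symbols were updated through Entrez identifiers to RefSeq GRCm38.p6, and 0 changed. A gene was represented by its brightest single-symbol probe set, which gave 19938 genes.

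The 9 genes and all lists were chosen with earlier results of these data known. Differences of other genes went through lmFit and eBayes of limma 3.58.1 (R 4.3.3). Tests were two-sided, with p-values adjusted by Benjamini and Hochberg's method across 19938 genes and a threshold of 0.05. There were 12 context lists and 9 marker lists. Named genes were, from each context list, up to 2 largest rises and falls past the threshold, fixed genes such as Nr1h3, Maf, Mrc1, Folr1 and Stab2, the 3 nearest profiles of 4 members, and the marker with the largest difference from each list of other cells. Loxl3, Wt1, Msln, Krt18, Krt19, Upk3b, Lrrn4, Slc40a1 and Clec4f fall outside this rule. They were named after their values were seen, as were the motifs shown. On simulated arrays of 19938 genes with the spread of this comparison and 200 changed genes, the limma step found 90% of the 1.5-fold changes and 100% of the larger ones, and made 12 false calls. Alternatives were a replicate block, the mean of probe sets, a filter on dim genes, quantile normalisation, median centring, cyclic loess, a trended robust prior, array weights, all annotated probe sets and leaving out each array. Leaving out 2 unloaded arrays was chosen after seeing the data. Precision is limited by 4 arrays a group. Figures were drawn with matplotlib 3.10.9.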

Additional observations from a re-analysis of the deposited data

Results flagged for a closer look

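In groups of 4 arrays, a value was marked when its gap to the nearest other array took up more of the group's range than Dixon's 95% critical value allows. Of 134 groups tested, 10 held such an array, where chance gives about 1 in 20, or 6.7. Among the 9 genes it was Cd163 on acLDL array 4, at 5.26 against 5.19 to 5.20 on the other acLDL arrays, a level below the background gauge. Tgfbi was marked in both groups, at 7.04 on unloaded array 2 against 7.27 to 7.29 and at 7.54 on acLDL array 2 against 7.78 to 7.82. On unloaded arrays, Blk was at 6.38 on array 3 against 6.11 to 6.16, Cma1 at 5.68 on array 1 against 5.81 to 5.82 and Padi4 at 5.76 on array 2 against 5.49 to 5.53. On acLDL arrays, C1qb was at 11.12 on array 3 against 11.18 on the others, H2-Eb1 at 7.96 on array 1 against 7.80 on the highest of the others, Ninj1 at 10.91 on array 1 against 10.77 to 10.79 and Shmt2 at 7.71 on array 3 against 7.89 to 7.90.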

How the results depend on the processing

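The count of changed genes was 4650 and ran from 3618 to 4590 without 1 array, and from 4169 with median centring to 6082 with all annotated probe sets in the other settings. Of the 9 genes, 4 or 5 were at least 1.5-fold higher in every setting run. The labels do not say what the replicate numbers share. Deviations of same-numbered arrays correlated at 0.11, -0.16, 0.30 and 0.14, not all above 0.1, so the numbers were not used as pairs, and pairing cannot be settled from these values. A replicate block gave 4860 changed genes, 8 members of the monocyte-derived list in place of 5 and 1 adhesion receptor gene in place of 2, and moved no other list by over 1.5 times. Counts of changed members also became 1 in the SRCR family with median centring, 1 in the hyaluronan list with the filter on dim genes, and 1 among adhesion receptors with median centring, cyclic loess or without unloaded arrays 1 and 4. Without those arrays the Kupffer list gave 4 and the C3 list 2, and without arrays 2 and 3 the stabilin-1 list gave 2. Leaving out 1 array gave 2 to 4 in the C3 list, 0 to 3 among adhesion receptors, 1 to 2 in the SRCR family, 2 to 4 in the hyaluronan list and 3 to 5 in the stabilin-1 list. The lower olfactory level with acLDL was -0.0337 after quantile normalisation and -0.0479 after cyclic loess (exact permutation p = 0.0857 each), and -0.0913 to -0.0623 without 1 array, with p = 0.0857 in the exact test without acLDL array 1 or 4. The cause of these shifts was not tested. Of 50 named genes that passed, 12 missed the threshold in at least 1 setting, and 0 reversed. Genes near the background gauge have sizes that may be understated.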
